A study of Mus musculus with 9 samples.

Results

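The genes described here encode the aminoacyl-tRNA synthetases and their close relatives. They are the 42 rows, of 17769 in the count table, whose gene name contains "tRNA synthetase". Of these, 20 encode cytosolic enzymes or enzyme subunits, 17 encode mitochondrial enzymes, 2 encode scaffold proteins (Aimp1 and Aimp2) and 3 encode related proteins (Aarsd1, Prorsd1 and Tarsl2). Gars and Kars each make both a cytosolic and a mitochondrial enzyme and were counted with the cytosolic ones. RNA came from mouse bone marrow cells sorted as MEP, a shorthand for megakaryocyte-erythroid progenitors, with 3 libraries in each of 3 groups. The E12 group carried SclCre and a Jak2 exon 12 allele and was taken 6 weeks after tamoxifen. The VF group carried SclCre and the V617F allele and was taken 12 weeks after tamoxifen. The WT group was labelled WT only, also at 12 weeks, and whether it carried SclCre is not given. All 3 groups were on a C57BL/6N background and share 1 induction protocol of 5 daily tamoxifen injections. Jak2 is the kinase behind the erythropoietin receptor and other cytokine receptors, both alleles activate it, and SclCre limits the change to cells in which the Scl promoter fragment is active. Since E12 and VF differ in weeks as well as allele, allele and time cannot be told apart between them, and the same holds for E12 and WT.

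An aminoacyl-tRNA synthetase joins an amino acid to the tRNAs that read its codons, so that each amino acid used by a ribosome depends on one of these enzymes. Cytosolic and mitochondrial ribosomes are mostly served by separate nuclear genes, and several cytosolic enzymes sit with Aimp1, Aimp2 and Eef1e1 in the multisynthetase complex. When uncharged tRNA builds up, the kinase Gcn2 (gene Eif2ak4) favours translation of the transcription factor ATF4, which binds promoters of many cytosolic synthetase genes and of amino acid transporters.

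A RefSeq table of promoter windows (GRCm38.p6, 250 bases before to 50 bases after a gene's start) matched 32 of the 42 genes, 13 cytosolic, 14 mitochondrial, 2 scaffold and 3 related, with 34 windows in all. They were searched on both strands for TGATGNAA, the core letters of the element that ATF4 binds. It was found in 5 genes, all cytosolic, and in 0 of the 14 mitochondrial genes, against 3.97% of the 32851 windows in the whole table. The 5 windows are printed because they hold the only matches among these genes; each reads 5′ to 3′ on the gene's own strand and the capitals mark the match, some of them in reverse complement.
Aars, chr8:111033592-111033891, plus strand: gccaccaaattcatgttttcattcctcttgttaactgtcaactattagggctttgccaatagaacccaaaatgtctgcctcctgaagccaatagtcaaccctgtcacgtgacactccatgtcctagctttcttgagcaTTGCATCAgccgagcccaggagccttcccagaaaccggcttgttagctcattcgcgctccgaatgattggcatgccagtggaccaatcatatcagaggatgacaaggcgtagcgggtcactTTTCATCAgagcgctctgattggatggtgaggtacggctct
Gars, chr6:55037751-55038050, plus strand: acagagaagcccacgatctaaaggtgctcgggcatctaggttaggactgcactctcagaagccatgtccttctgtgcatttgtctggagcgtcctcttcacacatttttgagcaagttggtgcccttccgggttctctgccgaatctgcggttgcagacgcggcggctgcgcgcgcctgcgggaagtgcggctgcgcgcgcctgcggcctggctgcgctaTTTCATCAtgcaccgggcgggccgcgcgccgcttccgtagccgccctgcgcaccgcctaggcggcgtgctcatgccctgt
Iars, chr13:49681880-49682179, plus strand: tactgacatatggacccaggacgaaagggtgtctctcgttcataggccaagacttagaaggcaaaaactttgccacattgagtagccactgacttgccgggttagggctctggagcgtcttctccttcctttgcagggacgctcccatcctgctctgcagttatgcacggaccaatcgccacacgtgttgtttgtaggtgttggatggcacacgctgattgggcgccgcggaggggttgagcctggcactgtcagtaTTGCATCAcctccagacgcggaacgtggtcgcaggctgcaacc
Tars, chr15:11399609-11399908, minus strand: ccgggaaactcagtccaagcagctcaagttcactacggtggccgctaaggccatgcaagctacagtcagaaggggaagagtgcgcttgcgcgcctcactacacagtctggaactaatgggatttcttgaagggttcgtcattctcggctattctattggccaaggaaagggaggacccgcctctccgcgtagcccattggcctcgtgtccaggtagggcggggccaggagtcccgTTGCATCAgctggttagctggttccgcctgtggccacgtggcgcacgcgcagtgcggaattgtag
Yars, chr4:129189653-129189952, plus strand: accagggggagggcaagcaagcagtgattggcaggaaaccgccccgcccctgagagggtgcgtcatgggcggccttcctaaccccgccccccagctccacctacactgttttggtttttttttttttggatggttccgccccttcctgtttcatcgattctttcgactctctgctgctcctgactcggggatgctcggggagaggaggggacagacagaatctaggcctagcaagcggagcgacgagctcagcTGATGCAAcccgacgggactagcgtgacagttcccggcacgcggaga
Aars held 2 matches, with first bases at -112 and 10 from the annotated start, and the others held 1 each, at -30 in Gars, 8 in Iars, -15 in Tars and 4 in Yars. The letters CACGTG, the E-box that MYC and related factors bind, were in 5 of the 32 genes (Farsb, Aars, Iars and Tars, and the mitochondrial Ears2), against 7.15% of all windows. A match is a description of the letters and no match says only that they are not in this window.

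Library totals lay between 20328414 and 23499914 counts for E12, between 19256431 and 21331168 for VF and between 33838681 and 39736096 for WT. The 42 genes took 0.791% to 0.901% of the counts in E12, 0.573% to 0.578% in VF, and 0.309%, 0.702% and 0.924% in WT 50, WT 51 and WT 52. WT 50 stood apart: genes under 1 kb took 27.9% of its counts, against 14.1% and 11.2% in the other WT libraries and 6.92% to 8.97% in those of E12 and VF. The WT libraries carry another run of facility numbers than E12 and VF, so library series and genotype cannot be told apart in either comparison with WT. E12 5 also differed from its group: hemoglobin genes took 3.37% of its counts, against 0.104% in E12 1 and 0.0786% in E12 2. Erythroid markers, 3 hemoglobin genes among them, were present in all 9 libraries. They summed to 8890 to 25500 CPM (counts scaled to library size) in E12, 1330 to 1970 CPM in VF and 23500 to 40100 CPM in WT. Megakaryocyte markers summed to 382 to 468 CPM in E12, 2020 to 2580 CPM in VF and 62.2 to 176 CPM in WT, where Itgb3 was at 0. Stem and multipotent markers summed to 543 to 852 CPM in E12, 1830 to 1860 CPM in VF and 88.8 to 212 CPM in WT, where Mecom and Tek were at 0, and neutrophil markers to 1550 to 2220 CPM in E12, 6890 to 12800 CPM in VF and 257 to 4310 CPM in WT. The part of this mix of cells in the synthetase results was not tested, and in bulk RNA fewer cells of a type and less RNA per cell cannot be told apart. Labels do not say whether the libraries of a group came from separate mice, so p-values measure the spread between these libraries.

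Per length, the cytosolic genes were the more abundant. Their median level was 78.8 to 96.9 CPM per kb in the E12 libraries, 49.6 to 50.5 CPM per kb in VF, and 36.4, 75.1 and 133 CPM per kb in WT 50, WT 51 and WT 52. The median of the mitochondrial genes was 24.3 to 28.9 CPM per kb in E12, 16.8 to 17.6 CPM per kb in VF, and 5.75, 15.7 and 28.1 CPM per kb in the same WT libraries, below that of the cytosolic genes in each of the 9 libraries. In the 18 pairs of a cytosolic and a mitochondrial gene for the same amino acid, the mean level per kb of the cytosolic gene was the higher in 17 pairs in E12, 16 in VF and 18 in WT. The median ratio was 4.3 in E12, 3.92 in VF and 5.42 in WT. The widest pair was the glutamate pair, Eprs over Ears2, at 28.4 in E12, 22.0 in VF and 27.6 in WT. Leucine was the exception in both mutants: Lars over Lars2 was 0.909 in E12 and 0.736 in VF. Cysteine, Cars over Cars2, was also below 1 in VF, at 0.69.

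**Figure D1:**
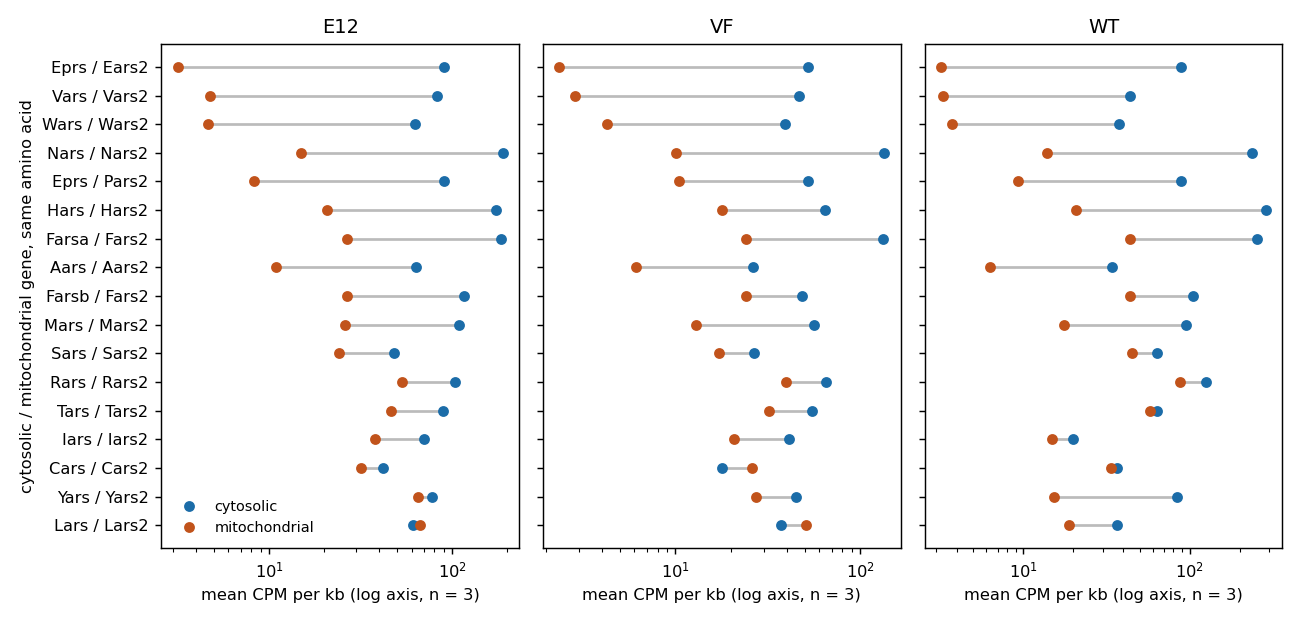
Mean CPM per kb (log axis, n = 3 libraries) of the cytosolic (blue) and mitochondrial (orange) gene for the same amino acid in E12, VF and WT, 1 pair per row, for the genes reported here. The cytosolic gene lies to the right except for leucine in E12, and for leucine and cysteine in VF.

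The spread among libraries was widest in WT. For the cytosolic genes the median coefficient of variation over 3 libraries was 9.81% in E12, 2.82% in VF and 48.5% in WT, and for the mitochondrial genes it was 12.7%, 7.55% and 48.5%. Summed over the cytosolic genes, the level was 6233, 5687 and 5179 CPM in E12 1, E12 2 and E12 5, 3291, 3320 and 3333 CPM in VF 1, VF 2 and VF 3, and 2822, 5999 and 8077 CPM in WT 50, WT 51 and WT 52. The E12 sums all lay above the VF sums, and the WT sums ran from below VF to above E12. Of the CPM of both compartments, the mitochondrial genes made up 18.1% to 21.0% in E12, 21.5% to 23.2% in VF libraries and 17.0% to 17.2% in those of WT, so their share was similar in the 3 WT libraries although the sums differed.

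**Figure D2:**
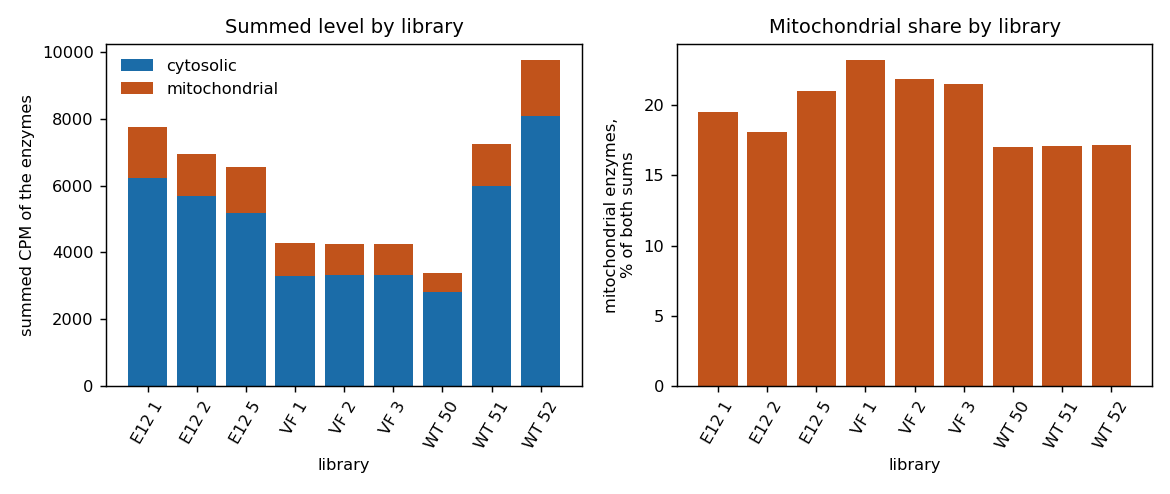
Left, summed CPM of the 20 cytosolic (blue) and 17 mitochondrial (orange) genes in each library; right, the mitochondrial part as a percentage of both sums. The 3 VF libraries lie close together at 3291 to 3333 CPM for the cytosolic genes, and the 3 WT libraries lie far apart.

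Between the mutants, nearly every synthetase gene had a higher mean in E12 than in VF. All 20 cytosolic genes and 16 of the 17 mitochondrial genes had a log2 fold change above 0, with medians of 0.78 and 0.49, beside -0.05 over all 13608 tested genes. The libraries of E12 all lay above those of VF for 19 of 20 cytosolic and 11 of 17 mitochondrial genes, a direction in which 28.2% of all tested genes were apart, with 31.3% apart in the other. With edgeR's quasi-likelihood test fitted over all 9 libraries and Benjamini-Hochberg adjustment, only the cytosolic Hars and the related Tarsl2 passed an adjusted p of 0.05 (1 of 20 cytosolic, 0 of 17 mitochondrial, 1 of 3 related, 0 lower), beside 2.19% of tested genes called higher and 1.02% called lower. In that fit 11 of 20 cytosolic and 2 of 17 mitochondrial genes had an unadjusted p under 0.05, beside 2415 of all 13608 tested genes. With E12 and VF fitted alone, which leaves the WT spread out of the variance, 20 of 20 cytosolic and 12 of 17 mitochondrial genes were called higher and 0 lower, beside 25.4% of genes called higher and 22.6% lower. With all groups kept but WT 50 left out, 16 cytosolic and 5 mitochondrial genes were called higher, beside 12.8% of genes called higher and 10.7% lower. With offsets for the length and GC content of each gene the counts were 7 and 0 (6.02% of genes higher, 3.69% lower), and with DESeq2 they were 9 and 0 (6.32% and 6.14%). Without WT 50 and E12 5 they were 15 and 4 (11.3% and 7.1%), and in all these fits 0 were lower. Leaving out WT 52 gave 7 and 1, leaving out WT 51 gave 2 and 0, and leaving out any single E12 or VF library gave 0 and 0. For these last runs the share of all genes called is not given. Markers of cell types moved with this difference. Of the erythroid markers 10 of 11 were higher in E12 than in VF, while 5 of 9 megakaryocyte, 5 of 7 stem, 1 of 8 neutrophil and 1 of 6 mast cell markers were lower, and their part in it was not tested.

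**Figure D3:**
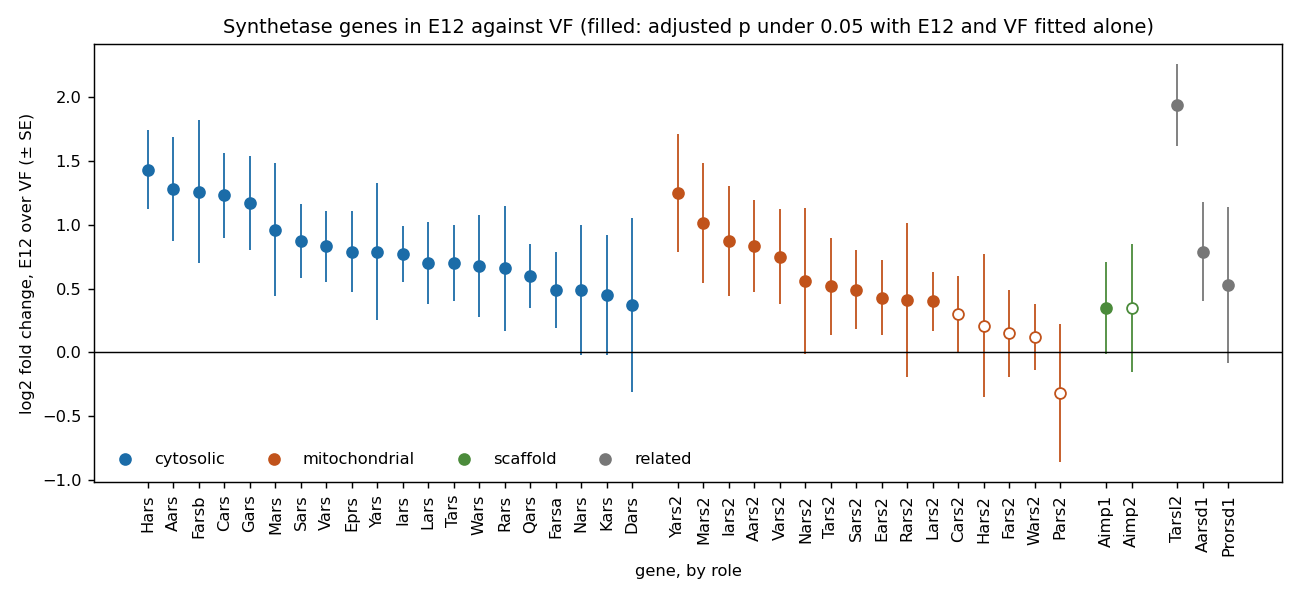
log2 fold change of E12 over VF with its standard error from the fit of all 9 libraries, for the genes reported here, grouped by role and ordered by size. Every point drawn but that of Pars2 lies above 0; filled points passed an adjusted p of 0.05 when E12 and VF were fitted alone, and open points did not.

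Hars, which charges histidine, was at 375, 316 and 339 CPM in the 3 E12 libraries, against 127, 128 and 127 CPM in VF. The groups were far apart, 2.69-fold in E12 over VF (log2 fold change 1.43 ± 0.31 SE, edgeR adjusted p = 0.0451, and 2.21e-05 with E12 and VF fitted alone). The call was lost without any 1 E12 or VF library, with edgeR adjusted p from 0.129 to 0.233, while the log2 fold change stayed at 1.36 to 1.49. Hars on chromosome 18 shares 195 exon bases with its mitochondrial neighbour Hars2 on the other strand, and these unstranded libraries cannot tell apart the reads of the shared stretch. Hars2 itself was at 57.4 to 72.8 CPM in E12 and 54.3 to 58.3 CPM in VF, and did not pass either fit.

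Other cytosolic genes differed by over 2-fold without passing the fit of all 9 libraries. Aars, for alanine, was at 235, 237 and 236 CPM in E12, against 90.3, 104 and 98.3 CPM in VF. Farsb, the beta subunit for phenylalanine, was at 326, 284 and 271 CPM in E12, against 124, 120 and 124 CPM in VF. The VF values of both were tightly grouped and well below E12, with log2 fold changes of 1.28 ± 0.41 (SE; edgeR adjusted p = 0.136) for Aars and 1.26 ± 0.56 (edgeR adjusted p = 0.28) for Farsb. Cars, for cysteine, was at 139, 137 and 127 CPM in E12, against 58.2, 55.3 and 58.2 CPM in VF. Gars, for glycine, was at 388, 391 and 340 CPM in E12, against 167, 168 and 161 CPM in VF. With E12 and VF alone fitted, these 4 genes had edgeR adjusted p-values of 2.67e-05 to 3.77e-05. Aars shares 14.3% of its exon bases with Exosc6 on the same strand, so part of its counts may belong to that gene, which was at 23.5 to 51.4 CPM in E12 and 21.7 to 28.4 CPM in VF.

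The smaller cytosolic differences ran in the same direction. Vars, for valine, was at 364, 352 and 328 CPM in E12, against 191, 199 and 197 CPM in VF (log2 fold change 0.83 ± 0.28 SE). Sars, for serine, was at 191, 173 and 174 CPM in E12, against 99.6, 101 and 94.0 CPM in VF (0.87 ± 0.29). Tars, for threonine, was at 254, 240 and 211 CPM in E12, against 139, 153 and 142 CPM in VF (0.70 ± 0.30). None of the 3 overlapped between the groups, and all 3 passed when WT or WT 50 was left out. Farsa, the alpha subunit for phenylalanine, was at 386, 328 and 303 CPM in E12, against 240, 235 and 248 CPM in VF, a log2 fold change of 0.49 where its partner Farsb had 1.26. The difference between the subunits was not tested. Wars, Yars and Nars, for tryptophan, tyrosine and asparagine, had log2 fold changes of 0.68, 0.79 and 0.49, again without overlap between E12 and VF.

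The 5 cytosolic genes whose promoter windows hold the TGATGNAA letters had log2 fold changes of E12 over VF of 1.28 (Aars), 1.17 (Gars), 0.77 (Iars), 0.70 (Tars) and 0.79 (Yars). The other 8 cytosolic genes with a window ran from 0.37 (Dars) to 1.26 (Farsb), so the ranges overlap.

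**Figure D4:**
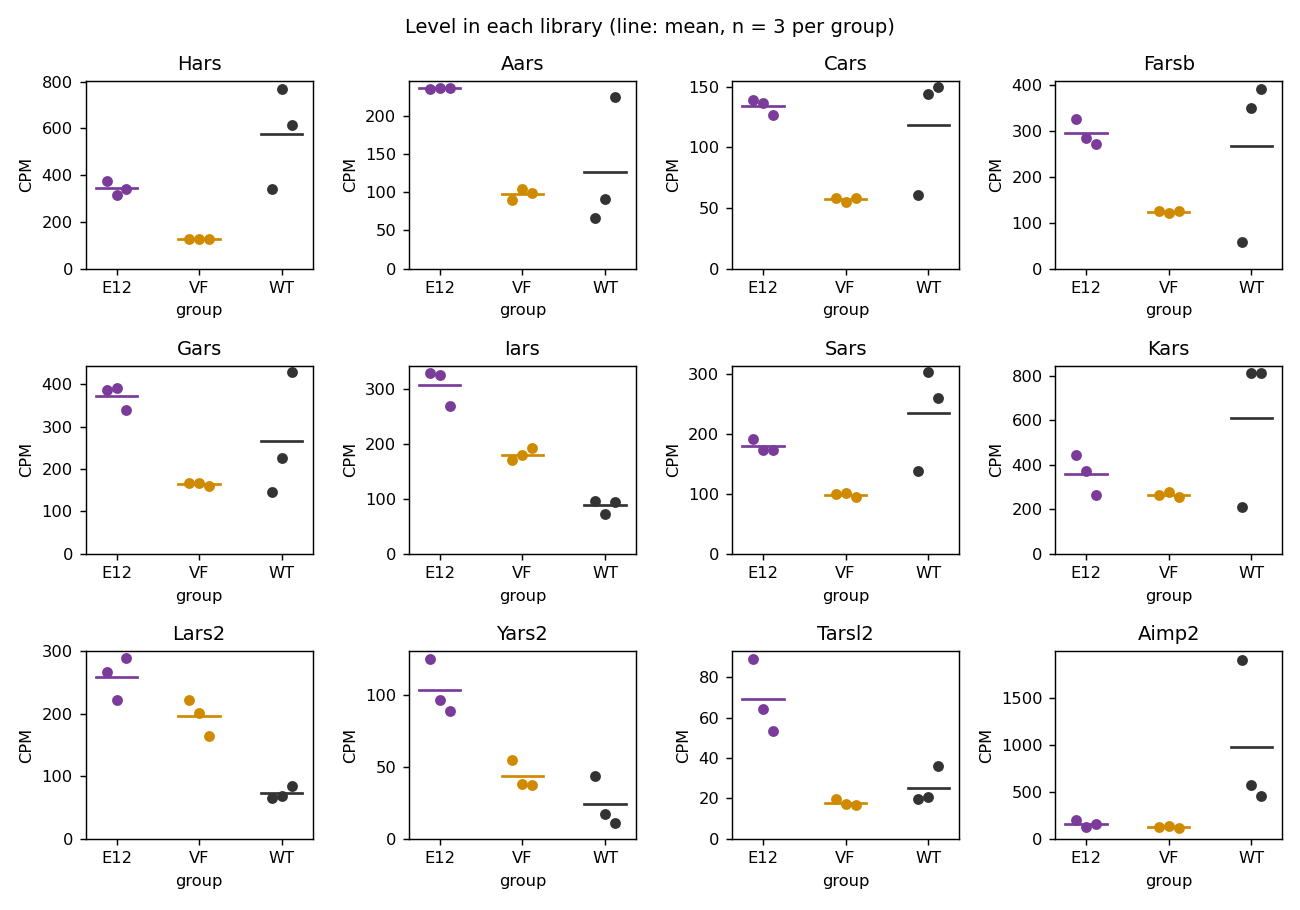
CPM in each library (points) and the group mean (line, n = 3) for 12 of the genes, with each axis from 0. In Hars, Aars, Cars, Farsb and Gars the 3 VF libraries lie together below every E12 library, while the WT libraries of Farsb and Kars include 1 low value, WT 50.

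Among the 8 enzymes of the multisynthetase complex the median log2 fold change of E12 over VF was 0.68, and among the 12 cytosolic genes outside it 0.85. Iars, for isoleucine, was at 329, 326 and 270 CPM in E12, against 170, 180 and 192 CPM in VF. Eprs, which charges both glutamate and proline, was at 472, 456 and 377 CPM in E12, against 251, 250 and 253 CPM in VF. Lars, for leucine, was at 261, 229 and 204 CPM in E12, against 140, 145 and 141 CPM in VF. These 3 did not overlap between the groups, with log2 fold changes of 0.77, 0.79 and 0.70. Mars, for methionine, was at 371, 303 and 298 CPM in E12, against 170, 168 and 162 CPM in VF. Rars, for arginine, was at 229, 222 and 206 CPM in E12, against 141, 137 and 138 CPM in VF. Qars, for glutamine, was at 139, 120 and 113 CPM in E12, against 85.6, 79.5 and 80.5 CPM in VF. They too were apart in every library, with Mars (0.96) the widest of the complex. Dars, for aspartate, was at 324, 299 and 317 CPM in E12, against 255, 240 and 232 CPM in VF, the narrowest difference at 0.37. Kars, for lysine, was at 445, 370 and 264 CPM in E12, against 262, 276 and 254 CPM in VF, and was the 1 cytosolic gene whose groups overlapped, since E12 5 lay among the VF libraries.

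In the fit of all 9 libraries the scaffold genes of the complex had smaller log2 fold changes between the mutants than its enzymes. Aimp1 was at 67.2, 58.3 and 59.7 CPM in E12, against 51.9, 49.4 and 44.3 CPM in VF, and Aimp2 was at 197, 126 and 158 CPM in E12, against 125, 136 and 117 CPM in VF. Both had a log2 fold change of 0.35, beside 0.37 for the enzyme gene Dars. With the offsets this order did not hold: Aimp1 was at 0.41 and Aimp2 at 0.34, with Dars at 0.3 and Kars at 0.36. Aimp2 overlapped between the groups, and whether the scaffold genes differ from the enzymes was not tested. Aimp2 shares 29.4% of its exon bases with Eif2ak1, the heme-regulated eIF2alpha kinase, on the opposite strand.

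Tarsl2, a second cytosolic-type threonyl-tRNA synthetase gene, was at 89.2, 64.3 and 53.5 CPM in E12, against 19.8, 17.2 and 16.8 CPM in VF. It was 3.84-fold higher in E12, the widest difference of the 42 genes (log2 fold change 1.94 ± 0.32 SE, edgeR adjusted p = 0.0183), and lay apart in every library. Without any 1 E12 or VF library the log2 fold change was 1.72 to 2.10 with edgeR adjusted p from 0.0514 to 0.124, so that the call was lost. Aarsd1 and Prorsd1, which hold synthetase-like editing domains, had log2 fold changes of 0.79 and 0.53.

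The mitochondrial genes ran from -0.32 to 1.25 on the log2 scale, where the cytosolic genes ran from 0.37 to 1.43. Yars2, for tyrosine, was at 125, 96.5 and 89.4 CPM in E12, against 54.8, 38.1 and 37.5 CPM in VF (log2 fold change 1.25 ± 0.46 SE, edgeR adjusted p = 0.19). Mars2, for methionine, was at 70.9, 71.0 and 82.5 CPM in E12, against 33.2, 41.1 and 37.4 CPM in VF (1.01 ± 0.47). Both lay apart in every library and passed with E12 and VF fitted alone. Iars2, for isoleucine, was at 142, 129 and 131 CPM in E12, against 74.0, 75.7 and 70.8 CPM in VF. Its log2 fold change was 0.87, with Aars2 at 0.83 and Vars2 at 0.75. Iars2 shares 22.9% of its exon bases with Rab3gap2 on the opposite strand. Aars2, for alanine, was at 27.3, 44.0 and 38.6 CPM in E12, against 19.5, 19.9 and 22.4 CPM in VF. Vars2, for valine, was at 24.2, 20.8 and 18.5 CPM in E12, against 11.3, 14.2 and 12.3 CPM in VF. Nars2, for asparagine, was at 59.5, 53.1 and 55.2 CPM in E12, against 38.9, 38.2 and 36.5 CPM in VF. All 3 were apart in every library.

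At the other end of the mitochondrial group stood 5 genes that did not pass even with E12 and VF fitted alone: Cars2 (log2 fold change 0.30), Hars2 (0.21), Fars2 (0.15), Wars2 (0.12) and Pars2 (-0.32). Pars2, the mitochondrial prolyl enzyme, was at 29.4, 21.3 and 26.3 CPM in E12, against 36.1, 25.5 and 34.8 CPM in VF, with overlap. It was the 1 gene of the 42 with a lower mean in E12, and neither fit called it. Its cytosolic counterpart for proline is Eprs, at 0.79. Lars2, for leucine, was at 267, 223 and 289 CPM in E12, against 223, 202 and 165 CPM in VF, and overlapped, since E12 2 and VF 1 were both at 223 CPM.

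VF against WT asks what V617F cells hold relative to WT cells at the same 12 weeks. Most synthetase genes had a log2 fold change below 0, in 16 of 20 cytosolic genes (median -0.80) and 12 of 17 mitochondrial genes (median -0.38), while the median of all genes was 0.36. This cytosolic direction turned on the deposited log2 levels, where 14 of 20 genes lay above 0 with a median of 0.24 (limma), beside 0.16 over all genes; the mitochondrial median there was -0.43. The edgeR test of all 9 libraries called 1 cytosolic gene higher and 5 lower, and 1 mitochondrial gene higher and 1 lower, beside 27.7% of all genes higher and 20.9% lower. The share of cytosolic genes called lower is near that background, and the other 3 shares are below it. Without WT 50 the cytosolic counts were 1 higher and 16 lower and the mitochondrial 2 and 8, beside 32.8% and 27.1% of all genes. With the length and GC offsets the counts were 0 and 13 cytosolic and 2 and 7 mitochondrial, beside 22.1% and 22.5% of all genes, whose median moved to 0.07. Cytosolic and mitochondrial counts were 1 and 10, and 1 and 3, with DESeq2 (30.0% and 26.2% of all genes). They were 1 and 3, and 1 and 1, with VF and WT alone (21.3% and 16.2%), and 1 and 15, and 2 and 6, without WT 50 and E12 5 (33.0% and 26.6%). VF and WT did not overlap for 1 higher and 6 lower cytosolic genes and for 1 and 2 mitochondrial genes, beside 39.7% and 23.0% of all genes. Leaving out any 1 VF library gave 3 lower cytosolic genes, and leaving out WT 51 or WT 52 gave 3 lower mitochondrial genes. Erythroid markers moved with this comparison, with 10 of 11 lower and 0 higher in VF, while 8 of 9 megakaryocyte, 7 of 7 stem, 5 of 8 neutrophil, 3 of 6 monocyte and 4 of 6 mast cell markers were higher and 2 of 6 B cell markers lower. Their part in it was not tested.

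Hars was also the cytosolic gene that fell furthest in VF, to 127, 128 and 127 CPM, against 339, 770 and 613 CPM in WT (log2 fold change -2.17 ± 0.32 SE, edgeR adjusted p = 0.0011). Sars fell to 94.0 to 101 CPM in VF, against 139, 303 and 261 CPM in WT, and Qars fell to 79.5 to 85.6 CPM in VF, against 130, 146 and 219 CPM in WT. Their log2 fold changes were -1.26 and -1.01, with no overlap of VF and WT. Cars fell to 55.3 to 58.2 CPM in VF, against 60.8, 144 and 150 CPM in WT, and Farsa to 235 to 248 CPM in VF, against 296, 632 and 460 CPM in WT. Without any 1 VF library Cars and Farsa did not pass (edgeR adjusted p from 0.0751 to 0.0968), nor did Farsa without E12 2 (0.0517), and with the offsets Farsa was at -0.38 with an adjusted p of 0.174. Iars alone of the cytosolic genes was called higher in VF in the fit of all libraries. It was at 170, 180 and 192 CPM in VF, against 95.8, 73.0 and 94.6 CPM in WT (log2 fold change 1.04, edgeR adjusted p = 0.00544). With the offsets it was at 0.13 with an adjusted p of 0.616.

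Of the mitochondrial genes, Lars2 rose in VF, with 165 to 223 CPM in VF against 65.4, 68.7 and 85.3 CPM in WT (log2 fold change 1.43 ± 0.24 SE, edgeR adjusted p = 0.00184), and with the offsets its log2 fold change was 0.63. Sars2, for serine, fell to 35.0, 33.7 and 29.4 CPM in VF, against 53.9, 127 and 78.8 CPM in WT (-1.40 ± 0.32, edgeR adjusted p = 0.00688). Both calls held in every alternative run.

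The 2 scaffold genes and 2 of the related genes also fell in VF. Aimp2 was at 125, 136 and 117 CPM in VF, against 1910, 574 and 459 CPM in WT, and Aimp1 was at 44.3 to 51.9 CPM in VF, against 449, 202 and 161 CPM in WT. Their log2 fold changes were -2.96 and -2.48 (edgeR adjusted p = 0.00266 and 0.00126), and -1.34 and -1.18 with the offsets. Prorsd1 was at 32.5 to 35.9 CPM in VF, against 526, 114 and 74.4 CPM in WT, and Aarsd1 at 54.4 to 67.1 CPM in VF, against 464, 204 and 149 CPM in WT. In all 4 genes WT 50, the library rich in short genes, was the highest, and all 4 still passed without it, at -1.61 to -2.18. Prorsd1, of 2128 bases, had a log2 fold change of -2.8 in VF, and a wider one of -3.11 with the offsets. Aarsd1 had a log2 fold change of -2.14 in VF, and -0.92 with the offsets. It shares 41.0% of its exon bases with Gm27029 on the same strand, a gene without a row in the count table. Part of the Aarsd1 counts may belong to that gene. The ratio of the mean scaffold CPM to the mean CPM of the 8 complex enzymes was 0.318 to 0.426 in E12, 0.443 to 0.502 in VF, and 8.17, 1.4 and 0.736 in WT 50, WT 51 and WT 52.

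E12 against WT compares cells at 6 and 12 weeks. The cytosolic genes lay on both sides of 0, 12 of 20 above it with a median of 0.16, and so did the mitochondrial genes, 9 of 17 above it with a median of 0.10, beside 0.36 over all genes. On the deposited log2 levels (limma) all 20 cytosolic genes lay above 0, with a median of 1.03, beside 0.20 over all genes and 0.23 for the mitochondrial genes. The edgeR test of all 9 libraries called 2 cytosolic genes higher and 0 lower and 3 mitochondrial genes higher and 1 lower, beside 23.9% of all genes called higher and 18.1% lower. In that fit 4 of 20 cytosolic and 4 of 17 mitochondrial genes had an unadjusted p under 0.05, beside 6998 of all 13608 tested genes. Without WT 50 the counts were 3 higher and 9 lower cytosolic and 3 and 5 mitochondrial (28.4% and 24.0% of all genes), and without WT 52 they were 6 and 1, and 4 and 1. With the length and GC offsets they were 1 and 4, and 2 and 3 (15.8% and 14.7%), with DESeq2 2 and 3, and 3 and 2 (26.5% and 24.6%), and with E12 and WT alone 1 and 0, and 2 and 0 (12.7% and 10.5%). Without WT 50 and E12 5 they were 3 and 7, and 3 and 4 (27.0% and 21.2%). E12 and WT did not overlap for 5 cytosolic and 4 mitochondrial genes higher in E12 and 0 lower, beside 33.0% and 20.3% of all genes. Leaving out WT 51, or any 1 mutant library, gave 1 higher cytosolic and 2 higher mitochondrial genes, and without any 1 mutant library 0 mitochondrial genes were lower. Of 11 erythroid markers 1 was higher and 4 were lower in E12 than in WT. Higher in E12 were also 5 of 9 megakaryocyte, 6 of 7 stem, 2 of 8 neutrophil, 3 of 6 monocyte and 3 of 6 mast cell markers, with 1 neutrophil marker lower, and their part was not tested.

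Iars was at 329, 326 and 270 CPM in E12, against 95.8, 73.0 and 94.6 CPM in WT (log2 fold change 1.81 ± 0.23 SE, edgeR adjusted p = 0.00116). Lars2 was at 223 to 289 CPM in E12, against 65.4 to 85.3 CPM in WT (1.83 ± 0.24, edgeR adjusted p = 0.00136). Every E12 library lay above every WT library for both, and both passed with the offsets, at 0.90 and 0.99. Yars2 was at 89.4 to 125 CPM in E12, against 43.8, 17.2 and 11.3 CPM in WT (2.11 ± 0.47, edgeR adjusted p = 0.00844), and was at 1.63 with an adjusted p of 0.0595 without WT 51. Tarsl2 was at 53.5 to 89.2 CPM in E12, against 19.8, 20.5 and 35.8 CPM in WT (1.45 ± 0.31, edgeR adjusted p = 0.00744). It was thus above both other groups in E12, and its VF level of 16.8 to 19.8 CPM was near that of WT 50 and WT 51.

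Vars was at 328 to 364 CPM in E12, against 129, 169 and 255 CPM in WT, with a log2 fold change of 0.92 that turned to -0.61 with the offsets (edgeR adjusted p = 0.0266 and 0.0217), and it did not pass without WT 51 or any 1 mutant library (adjusted p from 0.0516 to 0.0752). Iars2 was at 129 to 142 CPM in E12, against 19.9, 49.9 and 87.7 CPM in WT (1.35, edgeR adjusted p = 0.0342), and lost the call without the same libraries (0.0565 to 0.0859). Rab3gap2, which shares 22.9% of the exon bases of Iars2, was at 87.4 to 102 CPM in E12, against 5.74, 11.8 and 42.6 CPM in WT. Its log2 fold change was 2.21 (edgeR adjusted p = 0.0183). Part of the Iars2 counts may belong to Rab3gap2, which was not tested. Sars2 was at 40.8 to 55.2 CPM in E12, against 53.9, 127 and 78.8 CPM in WT (-0.91, edgeR adjusted p = 0.0439), overlapped, and lost the call without any 1 mutant library (0.0665 to 0.14). Aimp2, Prorsd1, Aimp1 and Aarsd1 fell in E12 as well, with log2 fold changes of -2.61, -2.27, -2.13 and -1.35. Without WT 50 these were -1.83, -1.08, -1.70 and -0.87, and all 4 still passed. With the offsets Aimp2 was at -1.0, Prorsd1 at -2.62 and Aimp1 at -0.77, all called, and Aarsd1 at -0.11 (edgeR adjusted p = 0.674). Aimp1 and Aimp2 kept the call without each of the 9 libraries. Aarsd1 and Prorsd1 did not pass without any 1 E12 library (0.0564 to 0.081).

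**Figure D5:**
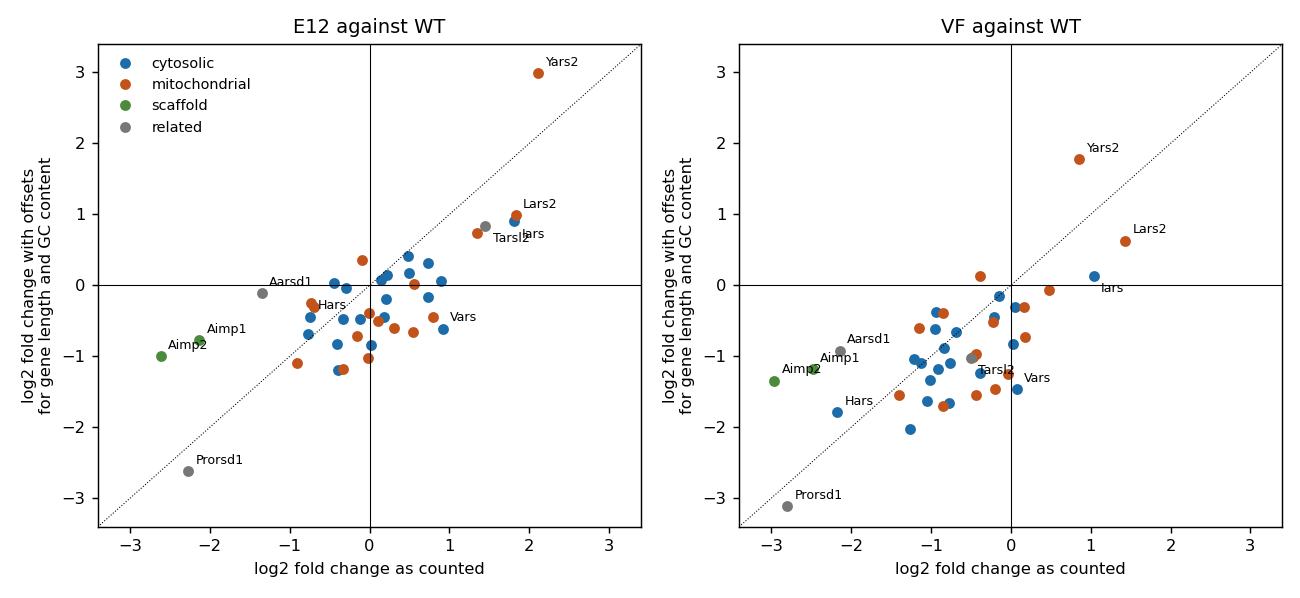
log2 fold change of each gene reported here against WT, as counted (x) and with the length and GC offsets (y), for E12 (left) and VF (right); the dotted line marks equal values. Aimp1, Aimp2 and Aarsd1 lie above the line and most enzymes lie below it, and Vars in E12 changes sign.

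Genes that work beside the synthetases were followed as lists. Beside their counts from the fit of all libraries stand the shares of all genes called, 2.19% higher and 1.02% lower in E12 against VF, 23.9% and 18.1% in E12 against WT, and 27.7% and 20.9% in VF against WT. Of 18 genes of the amino acid response, E12 against VF called 1 higher and 1 lower in the fit of all libraries (10 and 2 with E12 and VF alone). The higher gene was Gcn1l1, which encodes the activator of the Gcn2 kinase, at 202, 202 and 168 CPM in E12, against 88.0, 83.4 and 90.4 CPM in VF (log2 fold change 1.13, edgeR adjusted p = 0.0286). The lower one was Vldlr, a lipoprotein receptor, at 8.63, 14.7 and 5.34 CPM in E12, against 58.8, 33.4 and 47.9 CPM in VF (-2.29, edgeR adjusted p = 0.0498). Slc7a5, a transporter of large neutral amino acids, was at 60.3, 56.7 and 45.7 CPM in E12, against 27.2, 22.2 and 21.2 CPM in VF (edgeR adjusted p = 0.0538). Asns, the asparagine synthetase and a known ATF4 target, was named after its values were seen. It was at 454, 361 and 404 CPM in E12, against 80.2, 73.2 and 82.0 CPM in VF (2.37, edgeR adjusted p = 0.0665, and 1.58e-05 with E12 and VF alone), and at 160, 1050 and 1040 CPM in WT. Against WT, the list had 9 genes higher and 1 lower in E12, and 7 higher and 5 lower in VF.

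Among 8 mitochondrial translation factors, Tufm, the elongation factor that brings charged tRNA to the mitochondrial ribosome, was the 1 called between the mutants, at 161, 148 and 145 CPM in E12, against 77.2, 71.8 and 75.0 CPM in VF (log2 fold change 1.02, edgeR adjusted p = 0.0328). The list had 1 higher and 4 lower genes in E12 against WT, and 1 and 5 in VF against WT. Of the 4 genes for the mitochondrial amidotransferase and Met-tRNA formylation, 0 passed between the mutants and 2 were lower in each comparison with WT. Qrsl1, the amidotransferase subunit that makes mitochondrial Gln-tRNA possible without a glutaminyl enzyme, was at 25.2 to 31.0 CPM in E12, 19.4 to 20.5 CPM in VF and 57.6 to 61.8 CPM in WT.

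The list of elongation factor 1 genes with the complex partner Eef1e1 held 5 genes, which had 0 calls between the mutants. In the fit of all libraries all 5 were called lower in E12 and in VF than in WT. With the offsets only Eef1a1 and Eef1d kept the call in E12, and only Eef1e1, Eef1d and Eef1g kept it in VF. Eef1e1 was at 139, 107 and 130 CPM in E12, 58.6, 66.8 and 57.7 CPM in VF, and 805, 286 and 200 CPM in WT, and with the offsets its log2 fold change of E12 over WT was 0.05. Of 16 tested genes for tRNA end processing, 0 passed between the mutants, 0 were higher and 9 lower in E12 against WT, and 1 was higher and 11 lower in VF against WT. With the offsets Rpp30, Pop4 and Pop5 were among the genes that lost the call in E12 against WT, and Pop1 was among those that gained it. Of 15 RNA polymerase III genes, 0 passed between the mutants, 3 were higher and 4 lower in E12 against WT, and 0 and 4 in VF against WT. Of 9 genes for tRNA ligation and splicing, 0 passed between the mutants, with 0 higher and 2 lower in E12 against WT, and 1 and 3 in VF against WT. The proofreading genes Dtd1 and Dtd2 and 2 of 5 genes for selenocysteine tRNA charging were lower in each comparison with WT, and 0 of these passed between the mutants. Xpot, the exporter of tRNA from the nucleus, was at 116, 123 and 113 CPM in E12, 79.9, 75.7 and 81.2 CPM in VF, and 36.4, 25.1 and 42.4 CPM in WT, with every E12 library above VF and every VF library above WT. It rose by 1.76 in E12 and by 1.19 in VF on the log2 scale over WT (edgeR adjusted p = 0.00144 and 0.00373), and 0.81 and 0.15 with the offsets.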

How the data were processed

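Whole-transcript Smart-Seq2 libraries were made without molecular identifiers or strand, per the labels' protocols. The authors deposited whole-number counts per gene with gene lengths, and levels on a log2 scale, used here only as an alternative. In the upper part of the sorted levels the libraries differ by at most 0.017, so the levels are scaled otherwise than the counts here. STAR, limma, GRCm38 and mm10 are named in the submitters' processing notes, and the counting tool is not given in the sources used here. Members and gene lists were chosen with earlier results of these data known. Compartments come from textbook knowledge.

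Counts were tested with edgeR 4.0.16 in R 4.3.3: filterByExpr kept 13608 genes, all 42 members among them, with TMM factors and 1 quasi-likelihood fit of all 9 libraries by group. Tests were two-sided, with Benjamini-Hochberg adjustment over the tested genes and a threshold of 0.05. An exact permutation test of 3 against 3 libraries cannot go below 0.1. CPM use the TMM factors, and CPM per kb divide by the deposited gene length. The factor was 0.4559 in WT 50, 0.8412 in WT 51 and 0.8693 in WT 52. It was 1.09 to 1.191 in E12 and 1.258 to 1.281 in VF. The offsets are a smooth of each library's log counts on gene length and GC content, for the 93.9% of tested genes with both. The fit was tested on simulated counts with 200 genes changed per comparison. Of 2-fold changes it found 0% in VF against WT, 0% in E12 against WT and 1% in E12 against VF. Of 8-fold changes it found 55%, 64% and 59%, with 1, 1 and 0 false calls. The simulated counts gave the 3 groups the same spread for each gene, while in these libraries the spread was widest in WT. These shares therefore do not measure how often the fit finds or wrongly calls a gene in these data. A gene that did not pass this fit may still differ by 2-fold. Library values or their ranges are given in all 3 groups for called members, except Aarsd1 and Prorsd1, whose E12 values are left out. For the other members of the multisynthetase complex the text gives values in E12 and VF, not in WT. The same holds for other members whose direction differed between the mutants' comparisons with WT. The values of 1 member, which is in the counts, are not reported here. Up to 3 genes of each other list were named by smallest p. Positions are GRCm38, and exon overlaps come from GENCODE M21.

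The alternatives were RLE and upper-quartile factors, no filter and a filter of 50 counts, DESeq2 1.42.0, limma-voom, limma 3.58.1 on the deposited log2 levels, only the 2 groups compared, the offsets, a fit blocked on replicate number, and leaving out 1 library in turn or WT 50 and E12 5 together. Overlap between libraries was added after seeing the data.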

Additional observations from a re-analysis of the deposited data

How the results depend on the processing

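Counts of synthetase genes past the threshold moved with the settings as follows, and the cause was not tested. The share of all genes called is given above for some of these fits only. Counts from the other fits, the blocked fit among them, stand without that background. For E12 against VF, 1 cytosolic gene was higher; the count was 0 with upper-quartile factors and with no filter, 9 with DESeq2, 7 with the offsets, 20 with E12 and VF alone, 15 without WT 50 and E12 5, 19 by absence of overlap, and 0 to 16 leaving out 1 library. The mitochondrial count of 0 was 1 on the deposited levels, 12 with E12 and VF alone, 4 without WT 50 and E12 5, 11 by absence of overlap, and 0 to 5 leaving out 1 library. With the replicate number as a block, in a fit of all E12 and VF libraries, the counts were 20 and 10. Only numbers 1 and 2 occur in both groups, so only they inform that comparison. Same-numbered libraries deviated together by a correlation of 0.00975 and 0.103 over 2 pairs. The other pairs of an E12 and a VF library ran from -0.198 to 0.227. These values overlap, so the check cannot tell whether samples with the same number belong together. WT shares no number with either group.

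For VF against WT, 1 cytosolic gene was higher (3 on the deposited levels, 0 with the offsets). The 5 lower ones were 10 with DESeq2, 2 on the deposited levels, 3 with the 2 groups alone, 13 with the offsets, 15 without WT 50 and E12 5, and 3 to 16 leaving out 1 library. The 1 higher mitochondrial gene was 2 with limma-voom, the offsets, and without WT 50 and E12 5, and 1 to 2 leaving out 1 library. The 1 lower mitochondrial gene was 3 with RLE factors, no filter and DESeq2, 5 on the deposited levels, 7 with the offsets, 6 without WT 50 and E12 5, 2 by absence of overlap, and 1 to 8 leaving out 1 library.

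For E12 against WT, the 2 higher cytosolic genes were 1 with no filter, with the 2 groups alone and with the offsets, 7 on the deposited levels, 5 by absence of overlap, and 1 to 6 leaving out 1 library. The lower cytosolic count of 0 was 2 with RLE factors, 3 with DESeq2, 4 with the offsets, 7 without WT 50 and E12 5, and 0 to 9 leaving out 1 library. The 3 higher mitochondrial genes were 2 to 4 leaving out 1 library. The 1 lower mitochondrial gene was 2 with RLE factors and DESeq2, 0 with limma-voom, the 2 groups alone and absence of overlap, 3 with the offsets, 4 without WT 50 and E12 5, and 0 to 5 leaving out 1 library.

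Counting only values past the threshold in either fit, log2 fold changes of single genes reversed in 8 cases; signs of values past neither turned more often, among them the cytosolic genes over WT on the deposited levels. In E12 over WT these were Eprs at -0.84 and Vars at -0.61 with the offsets, and Farsb at -0.46 without WT 50 (up to 0.31 leaving out another library). In VF over WT they were Vars at -1.46 with the offsets, Wars at -0.45 without WT 50 (up to 0.15 leaving out another library) and -0.42 without WT 50 and E12 5, and Farsa at 0.25 and Wars2 at -0.62 on the deposited levels. The offsets moved the median of all genes over WT to 0.06 in E12 and 0.07 in VF. With WT 50 apart from the other WT libraries and a different library series, the comparisons with WT carry the most uncertainty.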
